A study of Mus musculus with 239 samples.

Results

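The 5 genes Trp63, Snai2, Id4, Myocd and Srf encode transcription factors, or partners of such factors, that are known from the basal layer of the mouse mammary gland or from smooth muscle. They were chosen by name and make up 5 of the 18850 genes measured, and all 5 were present in the table. Their levels were compared in single cells of 4 groups, and their relation over single basal cells to Krt14 (keratin 14) and Acta2 (smooth muscle alpha-actin) was described. All cells came from the fourth mammary glands of female FVB mice, 3 to 4 months of age, with no engineered allele named in the labels. Of 136 basal-gate cells 34 were virgin and the rest pregnant, and of 103 luminal-gate cells 49 were pregnant and 54 virgin, with pregnant mice at day 12 (12.5 in the protocol). Haematopoietic and endothelial cells had been depleted, and cells were then sorted into a basal gate (CD29 high, CD24 intermediate) and a luminal gate (CD29 low, CD24 high). The labels tie no cell to a mouse or a chip. Each group therefore counted as 1 sample without replicates, so no test was made. An SD here is the spread between cells of a group and not the error of a difference between groups.

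The basal cells of the mammary duct and alveolus are myoepithelial cells, which carry basal keratins and the contractile apparatus of smooth muscle and squeeze milk out under oxytocin. The p63 protein, from Trp63, maintains basal identity in stratified and glandular epithelia and acts on keratin, laminin and integrin genes. SNAI2 (Slug) is a zinc-finger repressor of epithelial junction genes, and ID4 binds E proteins and keeps them from DNA. SRF binds CArG boxes near genes of the cytoskeleton and of smooth muscle, and myocardin, from Myocd, is the cofactor that turns SRF to smooth muscle genes in vascular muscle.

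Levels are FPKM, fragments counted per kilobase of transcript and per sequencing depth, so they are scaled per length and can be set side by side between genes. Steps between low FPKM values gave a depth of 1.15 to 39.9 M fragments per cell (M for mega), with a median of 9.11 M for pregnant basal, 6.18 M for virgin basal, 8.85 M for pregnant luminal and 8.53 M for virgin luminal cells. In the cell of median depth, 1 FPKM stood for 52.4 fragments of Trp63, 17.1 of Snai2, 14.1 of Id4, 43.4 of Myocd and 34.7 of Srf. A cell was counted as having a gene at 1 FPKM or more. Genes at that level numbered a median of 2734.5 per pregnant basal, 1825 per virgin basal, 3653 per pregnant luminal and 3773 per virgin luminal cell, so virgin basal cells showed the fewest. Markers followed the sort in most cells: 3 or more of 7 basal markers reached 10 FPKM in 99 pregnant basal, 26 of 34 virgin basal, 4 of 49 pregnant luminal and 0 of 54 virgin luminal cells. Luminal markers did so in 24 pregnant basal, 5 virgin basal, 47 pregnant luminal and all 54 virgin luminal cells. Endothelial markers, although endothelial cells had been depleted and CDH5 was part of the stain, did so in 4 pregnant basal, 6 virgin basal, 1 pregnant luminal and 0 virgin luminal cells; their summed level had a median of 0 FPKM in both basal groups and a highest value of 2222 FPKM in pregnant and 6741 FPKM in virgin basal cells. Fibroblast markers did so in 1 virgin basal and 1 pregnant luminal cell, and pericyte, immune, Schwann and skeletal muscle markers in 0 cells.

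In the main values (FPKM as deposited, pseudocount 1, all cells), Trp63 and Snai2 were higher in basal than in luminal cells in both states. Id4 was so in pregnancy, Srf passed the size of a call between no groups in these values, and Myocd reached 1 FPKM in no cell. A gene was called higher or lower where the means of log2(FPKM + 1) of the groups differed by at least 1. Of the 5 factors, 2 were called higher in virgin basal than in virgin luminal cells (Trp63 and Snai2), against 1.51% of 16727 genes, and 0 were called lower, against 16.6% of genes. In pregnancy 3 of 5 were called higher in basal than in luminal cells (Trp63, Snai2 and Id4), against 3.26% of genes, and 0 lower, against 10.1%. Between basal cells, 1 of 5 was called higher in pregnant than in virgin cells (Snai2), against 7.40% of genes, and 0 lower, against 0.293%. In the luminal gate 0 of 5 were called higher in pregnant than in virgin cells, against 3.00% of genes, and 0 lower, against 3.12%. The comparisons share groups, so their counts are not independent of each other. These shares are also the background for the list counts below, and medians over all genes are over the same 16727 genes. Over the 7926 genes at 1 FPKM in at least 10% of cells, the median was -0.65 for virgin basal minus luminal cells. It was -0.36 for pregnant basal minus luminal and 0.29 for pregnant minus virgin basal cells.

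**Figure D1:**
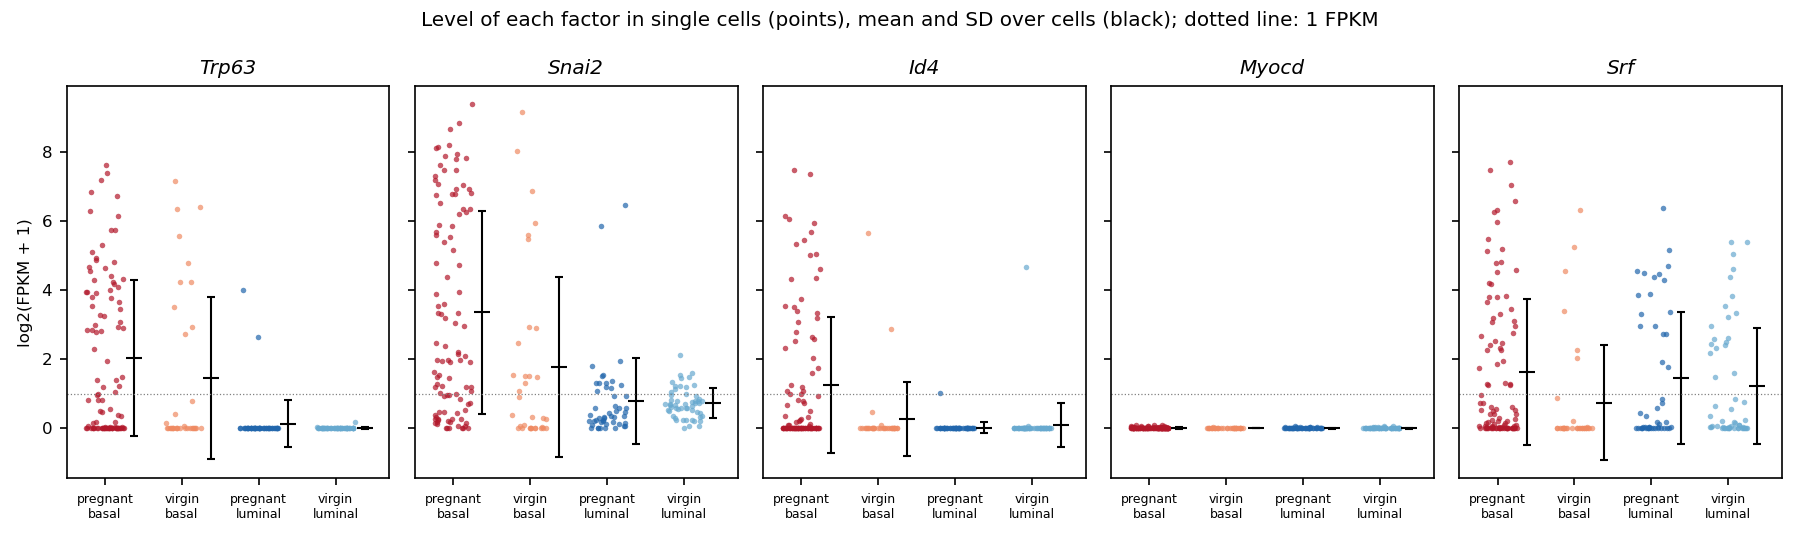
Level of each factor as log2(FPKM + 1) in every cell (points), with the mean and SD over cells (black), for pregnant basal, virgin basal, pregnant luminal and virgin luminal cells from left to right; the dotted line marks 1 FPKM. Trp63 and Id4 lie at 0 in nearly all luminal cells, Snai2 forms a low band in luminal cells and spreads upward in basal cells, Srf spreads in all 4 groups, and Myocd stays near 0.

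Trp63 (ENSMUSG00000022510.14; GRCm38 chromosome 16, 25683763 to 25892102, plus strand) was at 0 in nearly all luminal-gate cells. Pregnant basal cells ranged from 0 to 196 FPKM of it (median 0.973), and virgin basal cells from 0 to 144 FPKM (median 0). In pregnant luminal cells it ranged from 0 to 15.1 with a median of 0, and in virgin luminal cells its highest value was 0.138. It was thus at 0 or low in many basal cells and high in a minority, and the basal and luminal groups overlapped only up to 15.1 FPKM.

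Trp63 reached 1 FPKM in 51 pregnant basal cells (50%, exact Clopper-Pearson 95% interval 39.9 to 60.1) and in 10 of 34 virgin basal cells (29.4%, 15.1 to 47.5). It did so in 2 of 49 pregnant luminal cells (4.08%, 0.498 to 14) and in 0 of 54 virgin luminal cells, where 3 cells would be 5.56% and the exact interval ends at 6.60%. The 3 virgin luminal cells above 0 held 1 fragment each, whereas pregnant basal cells above 0 held a median of 355.5 fragments. Among cells at 1 FPKM or more, the median was 14.3 FPKM in pregnant basal and 22.2 FPKM in virgin basal cells.

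Mean Trp63 was 2.03 ± 2.27 on the log2(FPKM + 1) scale in pregnant basal (SD over cells), 1.45 ± 2.34 in virgin basal (n = 34), 0.14 ± 0.68 in pregnant luminal (n = 49) and 0.00 ± 0.03 in virgin luminal cells (n = 54). The basal minus luminal difference was 1.90 in pregnancy and 1.45 in virgins, each also less than the SD over the basal cells. Pregnant minus virgin basal was 0.58, less than the SD over cells of either group, and the ratio of mean FPKM was 1.15. That small difference changed sign, to -0.33, when only cells with at least 2000 genes were kept (93 pregnant and 12 virgin basal cells). The 3 highest virgin basal cells held 70% of that group's summed Trp63. The table has 1 value per gene, so promoter-specific forms of Trp63 could not be separated.

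Both pregnant luminal cells at 1 FPKM of Trp63 were among the 7 of 49 luminal-gate cells of pregnant mice with Acta2 at 10 FPKM or more. In the other 42 pregnant luminal cells Trp63 was at 1 FPKM in 0. Among basal-gate cells, Trp63 was at 1 FPKM in 0 of the 4 pregnant and 0 of the 6 virgin cells with endothelial markers, against 51 of the other 98 and 10 of the other 28. Without these cells the basal minus luminal difference was 1.98 in pregnancy and 1.76 in virgins.

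Of p63's relatives, Trp73 reached 1 FPKM in 1 pregnant basal cell and in no cell of the other groups. Trp53 (the tumour suppressor p53) gave a basal minus luminal difference of -0.92 in pregnancy and -0.45 in virgins, neither of which reached the size of a call.

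A list of 18 genes linked to p63 in basal epithelium held keratins, hemidesmosome and laminin genes, integrins and adhesion genes. In pregnancy 12 of 18 were higher and 0 lower in basal cells, with a median difference of 2.01 against -0.02 over all genes. The largest differences were 5.76 for Perp (a desmosomal membrane protein and p63 target), 5.04 for Krt5 (the partner of keratin 14), 3.65 for Krt14 and 3.31 for Sfn (14-3-3 sigma). In virgins 9 of 18 were higher and 1 was lower. The virgin median was 1.10 against -0.11 over all genes, led by Krt14 (6.44), Krt5 (3.08), Lama3 (a laminin-332 chain, 2.38) and Col17a1 (a hemidesmosome collagen, 1.86).

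Between pregnant and virgin basal cells 6 of these 18 genes were higher and 0 lower, with a median of 0.52 against 0.04 over all genes. Over genes at 1 FPKM in at least 10% of cells that median was 0.29, and 15.6% of them were higher. Perp differed by 3.66, Krt5 by 2.38 and Itga6 (a hemidesmosome integrin) by 1.93. Trp63 itself was not called in that comparison. Without cells with markers of other types, as also without cells against their gate, settings applied to the list after seeing the data, 5 of the 18 were higher and 1 lower, with a median of 0.27. Genes at 1 FPKM in at least 10% of cells had a median of 0.27 under each of these settings as well.

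Snai2 (ENSMUSG00000022676.7; chromosome 16, 14705852 to 14709385, plus strand) had the highest mean FPKM of the 5 factors in both basal groups. It ranged from 0 to 675 FPKM in pregnant basal cells (median 3.53) and from 0 to 577 in virgin basal cells, with a median of 0.285. In pregnant luminal cells it ranged from 0 to 88.2 with a median of 0.291, and in virgin luminal cells from 0 to 3.32 with a median of 0.608. The groups overlapped widely below a few FPKM, and above 10 FPKM they overlapped in only 2 pregnant luminal cells.

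At 1 FPKM the shares were 70 pregnant basal cells (68.6%, 58.7 to 77.5), 15 of 34 virgin basal (44.1%, 27.2 to 62.1), 14 of 49 pregnant luminal (28.6%, 16.6 to 43.3) and 12 of 54 virgin luminal cells (22.2%, 12.0 to 35.6). At 10 FPKM the counts were 42 pregnant basal, 6 virgin basal, 2 pregnant luminal and 0 virgin luminal cells. The low luminal signal was present in nearly every cell: 53 of 54 virgin luminal cells were above 0, with a median of 9 fragments and a maximum of 51. Its source was not tested.

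Mean log2(FPKM + 1) of Snai2 was 3.36 ± 2.94 in pregnant basal, 1.77 ± 2.60 in virgin basal, 0.80 ± 1.24 in pregnant luminal and 0.73 ± 0.44 in the virgin luminal group (SD over cells). The basal minus luminal difference was 2.56 in pregnancy and 1.04 in virgins, each less than the SD over the basal cells. The virgin difference fell short of a call with a pseudocount of 0.1 or 10, at 0.66 and 0.65. It was larger when cells were filtered, at 1.96 with at least 2000 genes and 1.60 within the middle quartiles of gene number. It was 1.36 without cells with markers of other types, and also without cells against their gate. In the main values it rests on a few high cells. The virgin basal median (0.285 FPKM) and share above 0 (67.6%) lay below those of virgin luminal cells (0.608 FPKM and 98.1%). Virgin basal cells also had fewer genes per cell, a median of 1825 against 3773, and the part of this was not tested. Pregnant minus virgin basal was 1.59, smaller than either SD over cells, and it came to 0.79 once cells with fewer than 2000 genes were left out. Mean FPKM came to 59.8 in pregnant and 33.5 in virgin basal cells, a ratio of 1.79, and 3 cells held 84.1% of the virgin sum. In pregnant luminal cells 3 cells held 85.2% of the sum, and 4 of the 7 luminal-gate cells with Acta2 at 10 FPKM were at 1 FPKM of Snai2. The other 42 reached no more than 2.50 FPKM.

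The other factors of the Snail, Zeb and Twist families, which share the repression of epithelial genes, were sparse. Of the 6, 0 were called between the gates in either state or between the basal groups. Snai1, the closest relative, reached 1 FPKM in 1 pregnant basal, 3 virgin basal, 2 pregnant luminal and 8 virgin luminal cells. Zeb1 did so in 2 pregnant basal, 2 virgin basal, 1 pregnant luminal and 0 virgin luminal cells.

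Of 10 epithelial genes that Snail-family factors are known to repress or that mark the epithelial state, 9 were lower and 0 higher in basal cells in pregnancy, with a median of -2.25 against -0.02 over all genes. In virgins 8 were lower and 0 higher, with a median of -3.23 against -0.11 over all genes. The claudins, which seal tight junctions, differed most: Cldn3 by -6.07, Cldn4 by -5.68 and Cldn7 by -5.32 in pregnancy, and by -5.52, -5.95 and -5.00 in virgins. Epcam (an epithelial adhesion molecule) differed by -3.10 in pregnancy and -3.80 in virgins. Between pregnant and virgin basal cells 0 of the 10 were called in either direction, with a median of -0.01.

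Snail-family proteins bind the E-box forms CAGGTG and CACCTG, which are one motif read on opposite strands. RefSeq promoter windows (250 bases before to 50 after a start) on GRCm38.p6 were held for 7 of the 10 genes. All 7 contained it in at least 1 window, against 22.6% of the 27025 genes with a window. Some genes have more than 1 window, with 32851 windows in all. Of the p63-linked genes, 6 of the 10 with a window held the motif too. The epithelial genes were listed as known Snail targets or epithelial markers, so their count is no test of SNAI2 acting on them. The 250 bases before the start of the claudin and of the adhesion gene with large differences are shown, with the motif in capitals; it began 14 bases before the start in Cldn4 and 187 and 19 before it in Epcam, and Cldn4 had a further copy 11 bases after the start.
Cldn4 (chr5:134946935-134947184, minus strand): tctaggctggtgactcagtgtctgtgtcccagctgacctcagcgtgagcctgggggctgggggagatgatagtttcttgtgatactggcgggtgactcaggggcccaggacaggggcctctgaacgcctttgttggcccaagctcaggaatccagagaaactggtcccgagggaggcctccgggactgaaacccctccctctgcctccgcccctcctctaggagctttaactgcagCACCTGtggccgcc
Epcam (chr17:87635729-87635978, plus strand): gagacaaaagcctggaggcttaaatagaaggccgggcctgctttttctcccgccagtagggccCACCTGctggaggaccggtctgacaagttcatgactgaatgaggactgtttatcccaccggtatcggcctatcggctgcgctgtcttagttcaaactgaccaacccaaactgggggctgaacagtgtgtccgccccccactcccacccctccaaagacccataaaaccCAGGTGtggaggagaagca
A match of letters is a description of these windows and does not show that the site is bound.

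Id4 (ENSMUSG00000021379.2; chromosome 13, 48261228 to 48266026, plus strand) was found mainly in pregnant basal cells. It ranged from 0 to 180 FPKM there, with a median of 0 and an upper quartile of 2.89. The highest value was 49.3 in virgin basal, 1.05 in pregnant luminal and 24.6 in the virgin luminal group, and the median was 0 in each. Most cells of all 4 groups were therefore at 0, and the groups differed in how many cells lay above it.

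Id4 reached 1 FPKM in 34 pregnant basal cells (33.3%, 24.3 to 43.4) and in 2 of 34 virgin basal cells (5.88%, 0.720 to 19.7). The luminal counts were 1 of 49 pregnant (2.04%, 0.052 to 10.9) and 1 of 54 virgin cells (1.85%, 0.047 to 9.89). The pregnant luminal cell was again one with Acta2 at 10 FPKM or more. Thinned to a common depth of 3.39 M fragments, the share above 0 came to 45.1% in pregnant and 8.97% in virgin basal cells. The same cells unthinned gave 49% and 11.5%. For both, 6 pregnant and 8 virgin basal cells were too shallow and left out.

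Mean log2(FPKM + 1) of Id4 was 1.26 ± 1.98 in pregnant basal, 0.27 ± 1.07 in virgin basal, 0.02 ± 0.15 in pregnant luminal and 0.09 ± 0.64 in the virgin luminal group. Pregnant basal minus pregnant luminal was 1.23, less than the SD over the basal cells. Pregnant minus virgin basal was 0.99, just under the size of a call, and 1.32 among cells with at least 2000 genes, where 0 of 12 virgin basal cells had Id4 at 1 FPKM. Mean FPKM came to 8.94 in pregnant and 1.65 in virgin basal cells, a ratio of 5.41. Exons of Id4 overlap the gene spans of A330033J07Rik and Gm49291 on the opposite strand. Whether they overlap exons of these genes was not examined. The sources used here do not state the counting strand, so reads from any shared stretch cannot be told apart.

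Among the relatives of Id4, Id2 was lower in virgin basal than in virgin luminal cells by -1.40 and differed by -0.67 in pregnancy. Id1 and Id3 were not called in either comparison. Of the E proteins that ID proteins bind, Tcf4 was higher in pregnant basal than in pregnant luminal cells by 1.51, Tcf12 was lower in virgin basal than in virgin luminal cells by -1.05, and Tcf3 was not called, at -0.29 in pregnancy and -0.37 in virgins. In virgins 1 of 3 ID relatives and 1 of 3 E proteins were thus lower. Of all genes 16.6% were lower there, and of genes at 1 FPKM in at least 10% of cells 34.4%. In pregnancy 1 of 3 E proteins was higher, against 3.26% and 6.86% of these genes.

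Srf (ENSMUSG00000015605.6; chromosome 17, 46548329 to 46556175, minus strand) did not set basal cells apart. It ranged from 0 to 211 FPKM in pregnant basal cells (median 0.383), from 0 to 79.3 in virgin basal (median 0), from 0 to 82 in pregnant luminal (median 0.130) and from 0 to 41.5 in virgin luminal cells (median 0.118). All 4 groups overlapped over most of their range, and virgin basal cells were most often at 0.

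Srf reached 1 FPKM in 42 pregnant basal cells (41.2%, 31.5 to 51.4), 6 of 34 virgin basal (17.6%, 6.76 to 34.5), 18 of 49 pregnant luminal (36.7%, 23.4 to 51.7) and 19 of 54 virgin luminal cells (35.2%, 22.7 to 49.4). The pregnant basal and both luminal shares were close, and virgin basal cells had the lowest. Thinned to 3.39 M fragments, Srf was above 0 in 66.6% of pregnant basal and 23.7% of virgin basal cells. In the luminal gate these shares were 55.6% in pregnancy and 62.1% in virgins. Thinning evens out depth only, not gene number per cell, which was also lowest in virgin basal cells. Among cells with at least 2000 genes, Srf was at 1 FPKM in 25% of the 12 virgin basal cells left. The other shares there were 44.1% for pregnant basal, 37.5% for pregnant luminal and 35.8% for virgin luminal. The part of gene number in the low virgin basal share was not tested.

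Mean log2(FPKM + 1) of Srf was 1.63 ± 2.11 in pregnant basal, 0.74 ± 1.67 in virgin basal, 1.46 ± 1.92 in pregnant luminal and 1.23 ± 1.68 in the virgin luminal group. Basal minus luminal was 0.16 in pregnancy and -0.50 in virgins, and pregnant minus virgin basal was 0.89. Each of these is below the SD over cells and below the size of a call. Other settings took Srf past it: pregnant minus virgin basal was 1.88 with a pseudocount of 0.1, 1.35 with every cell rescaled to the same sum and 1.02 without cells with markers of other types, and virgin basal minus luminal was -1.28 with a pseudocount of 0.1. Basal minus luminal in pregnancy lost its sign, at -0.0058, in cells within the middle quartiles of gene number. With at least 2000 genes per cell, basal minus luminal in virgins was -0.34 and pregnant minus virgin basal was 0.80. Mean FPKM came to 12.1 in pregnant basal and 4.62 in virgin basal cells, a ratio of 2.63. Srf exons overlap the gene span of Gm26904 on the opposite strand, with the same limits as for Id4.

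Myocd (ENSMUSG00000020542.18; chromosome 11, 65176561 to 65269989, minus strand) reached 1 FPKM in no cell. It was above 0 in 18 pregnant basal, 5 of 34 virgin basal, 9 of 49 pregnant luminal and 6 of 54 virgin luminal cells, with at most 3 fragments in a basal and 2 in a luminal cell. Its highest value was 0.063 FPKM. With 0 cells at 1 FPKM, a limit of 3 cells is a share of 2.94% for pregnant basal, 8.82% for virgin basal, 6.12% for pregnant luminal and 5.56% for virgin luminal cells, and the exact intervals end at 3.55%, 10.3%, 7.25% and 6.60%. The share above 0 was 17.6% of basal and 18.4% of luminal cells in pregnancy, and 14.7% and 11.1% in virgins. At 3 fragments or fewer per cell, no difference between the gates can be read from these shares.

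The other cofactors of SRF were present in both gates. Mkl1 (MRTF-A), an actin-regulated relative of myocardin, reached 1 FPKM in 15 pregnant basal, 4 virgin basal, 4 pregnant luminal and 5 virgin luminal cells. Mkl2 (MRTF-B) did so in 24 pregnant basal, 11 virgin basal, 18 pregnant luminal and 37 virgin luminal cells. The list held 5 cofactors: both MRTF genes, Elk1, Elk3 and Elk4. In virgins 2 of the 5 were lower in basal cells, Mkl2 by -1.38 and Elk4, an ETS-family partner of SRF, by -1.39. Of all genes 16.6% were lower there, and of genes at 1 FPKM in at least 10% of cells 34.4%. In pregnancy 0 of the 5 were called, with a median of 0.30.

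The smooth muscle contractile genes known as SRF and myocardin targets were far higher in basal cells. In pregnancy 15 of 16 were higher and 0 lower, with a median difference of 6.28 against -0.02 over all genes, and the remaining one, Des, was at 1 FPKM in no cell. Acta2 differed by 10.36, Tagln (transgelin) by 9.30, Myl9 (a myosin light chain) by 8.95 and Cnn1 (calponin) by 7.76. In virgins 14 of 16 were higher and 0 lower, with a median of 3.02 against -0.11, led by Tagln (7.72), Acta2 (7.63), Myl9 (5.53) and Tpm2 (a tropomyosin, 5.05). Between pregnant and virgin basal cells 14 of 16 were higher and 0 lower, with a median of 2.65 against 0.04, led by Actg2 (enteric smooth muscle actin, 6.13), Myl9 (4.34), Acta2 (4.03) and Cnn1 (3.81). Without the 4 pregnant and 6 virgin basal cells with endothelial markers 13 of 16 were higher, with a median of 1.82, and without basal cells lacking Krt14, Krt17 and Acta2 at 10 FPKM (1 pregnant and 5 virgin, along with luminal cells with Acta2) 12 of 16 were, with a median of 1.86. Applying both settings to the lists was chosen after seeing the data. The endothelial list itself had a median of -0.61 in that comparison, with 1 of 10 genes lower. Acta2 was at 1 FPKM in every pregnant basal cell and in 28 of 34 virgin basal cells, and its mean FPKM was 4.55 times as high in pregnant as in virgin basal cells.

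Pericytes and vascular muscle express contractile genes too. The pericyte list reached 3 markers at 10 FPKM in 0 cells of any group, Kcnj8 was at 0 in every cell, and Notch3 and Higd1b were at 0 in every basal-gate cell. Rgs5, another pericyte marker, was however higher in pregnant than in virgin basal cells by 1.66 and at 1 FPKM in 32 pregnant basal, 2 virgin basal, 2 pregnant luminal and 1 virgin luminal cells.

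Cytoskeletal SRF targets, which many cell types use, were mostly higher in pregnant than in virgin basal cells. Between pregnant and virgin basal cells 8 of 9 were higher and 0 lower, with a median of 2.06 against 0.04 over all genes, led by Flna (filamin A, 2.88), Cyr61 (a matricellular protein, 2.74), Zyx (zyxin, 2.68) and Ctgf (connective tissue growth factor, 2.67). Basal minus luminal gave 4 higher and 0 lower in pregnancy, with a median of 0.90, and 2 higher and 3 lower in virgins, with a median of -0.39. Flna (4.57 in pregnancy, 2.19 in virgins) and Ctgf (3.99 and 2.38) were higher in basal cells of both states.

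Immediate early genes, which SRF drives with ETS partners, showed no common direction between the gates. In pregnancy 2 of 9 were higher in basal cells (Egr3 by 2.23 and Fos by 1.04) and 2 lower (Mcl1 by -1.51 and Ier2 by -1.45). In virgins 1 was higher (Egr3, 1.59) and 1 lower (Fos, -2.60). Between pregnant and virgin basal cells 3 were higher, Fos by 1.71, Egr1 by 1.60 and Egr3 by 1.09. These genes also respond to tissue dissociation, and its part in the values was not tested. Of 8 known regulators and partners of myocardin, 1 was called in pregnancy, Fhl2 (a LIM-domain cofactor), higher in basal cells by 1.73, and 0 in virgins.

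**Figure D2:**
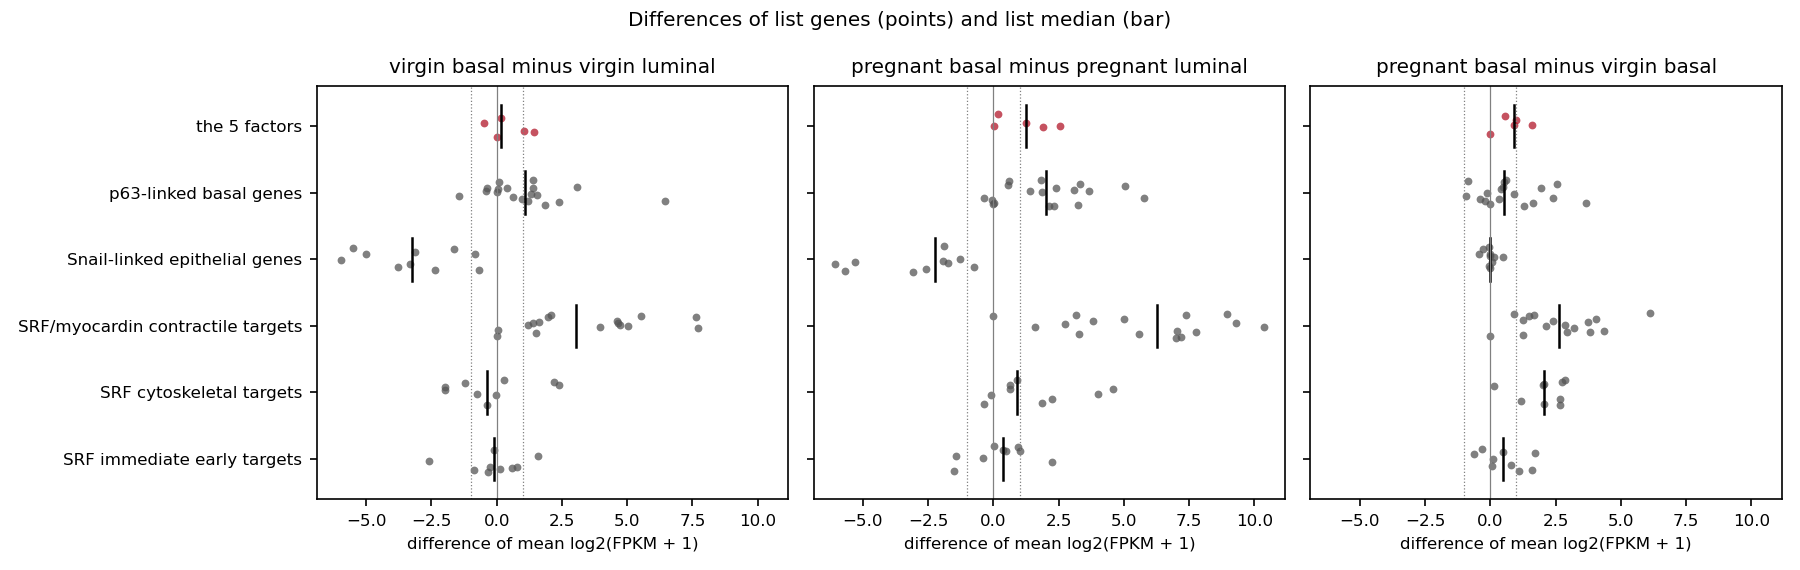
Difference of mean log2(FPKM + 1) for each gene (points) of the 5 factors and of 5 lists around them, with the list median (bar), for virgin basal minus virgin luminal (left), pregnant basal minus pregnant luminal (middle) and pregnant basal minus virgin basal cells (right); dotted lines mark a difference of 1. Contractile targets lie far to the right in all 3 comparisons, with medians of 3.02, 6.28 and 2.65, while epithelial genes lie to the left between gates, with medians of -3.23 and -2.25, and near 0 between basal groups.

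SRF acts through the CArG box, a run of A and T letters between CC and GG. The window before the Srf start itself held 2 such boxes, 82 and 62 bases before the start, and 1.81% of the 27025 genes with a window held any. The Acta2 window held no complete box but 2 forms with 1 C or G among the inner letters, 84 and 34 bases before the start, against 9.69% of genes with such a form. These 2 windows are shown because both genes were compared over the same cells, with the boxes in capitals.
Srf (chr17:46556163-46556412, minus strand): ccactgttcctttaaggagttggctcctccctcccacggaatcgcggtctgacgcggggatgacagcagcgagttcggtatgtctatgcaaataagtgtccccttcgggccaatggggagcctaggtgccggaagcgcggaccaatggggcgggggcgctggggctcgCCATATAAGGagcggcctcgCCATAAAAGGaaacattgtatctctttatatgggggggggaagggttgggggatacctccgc
Acta2 (chr19:34255374-34255623, minus strand): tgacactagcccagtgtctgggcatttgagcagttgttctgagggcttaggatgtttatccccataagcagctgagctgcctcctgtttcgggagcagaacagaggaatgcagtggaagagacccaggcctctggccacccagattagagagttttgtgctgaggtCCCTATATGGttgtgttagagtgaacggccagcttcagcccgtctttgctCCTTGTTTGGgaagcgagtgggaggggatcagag
Of the contractile list, 13 of 16 genes had a window and 1 of these, Myl9, held a complete box, which is no measure of boxes farther away. Of the cytoskeletal list, 3 of 6 did (Actg1, Filip1l and Vcl). The window of Id4 held neither a CArG box nor an E-box CANNTG, which 75% of genes have.

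Levels of the 5 factors were then set beside Krt14 and Acta2 over single basal cells. Krt14 had a median of 711 FPKM in pregnant and 373 FPKM in virgin basal cells and was at 1 FPKM in all but 1 of the pregnant and in 28 of 34 of the virgin cells. Acta2 had a median of 4846 FPKM in pregnant and 847 FPKM in virgin basal cells, with all of the pregnant and 28 of 34 of the virgin cells at 1 FPKM. The factors, at medians of 0 to 3.53 FPKM, lay far lower and were below 1 FPKM in many cells in which Krt14 and Acta2 were high. A factor at 0 in a cell cannot be told here from one that was missed in capture.

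Every one of the 51 pregnant and 10 virgin basal cells with Trp63 at 1 FPKM also had Krt14 there. The reverse did not hold: 50 pregnant and 18 virgin basal cells had Krt14 without Trp63, and 1 and 6 had neither. Snai2 cells had Krt14 in 69 of 70 pregnant and 14 of 15 virgin cases, Id4 cells in 34 of 34 and 2 of 2, and Srf cells in 42 of 42 and 5 of 6. With Krt14 in nearly all pregnant basal cells, such overlap carries little information.

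Over the pregnant basal cells, Spearman's rho of Trp63 was 0.11 with Krt14 and -0.06 with Acta2. Snai2 gave 0.00 and -0.01, Id4 gave 0.21 and 0.09, and Srf gave 0.02 and 0.10 with Krt14 and Acta2 in that order. The whole range for these 4 factors was -0.06 to 0.21. As a yardstick over the same cells, Krt14 with Acta2 gave 0.50, Tagln with Acta2 0.74 and Krt5 with Krt14 0.23. All genes at 1 FPKM in at least 10% of these cells (6844 genes) had a median rho of 0.04 with Krt14, and their 5th to 95th percentile was -0.16 to 0.25. With Acta2 the median was 0.00 and that span -0.22 to 0.25, so no factor lay outside what single genes showed.

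Over the 34 virgin basal cells, Trp63 gave a rho of 0.22 with Krt14 and 0.38 with Acta2. Snai2 gave -0.07 and 0.36, Id4 0.03 and 0.15, and Srf 0.03 and 0.08. Krt14 with Acta2 gave 0.68 and Tagln with Acta2 0.75 there. The 5288 genes at 1 FPKM in at least 10% of these cells spanned -0.31 to 0.34 with Krt14 and -0.25 to 0.38 with Acta2 (5th to 95th percentile), with medians of 0.02 and 0.07. With Acta2, Trp63 (0.382) lay just above the 95th percentile (0.379) and Snai2 just below it. Both were smaller among the 27 virgin basal cells with Krt14 and Acta2 both at 1 FPKM, where Trp63 with Acta2 was 0.21 and Snai2 with Acta2 was 0.10, and Snai2 with Krt14 was -0.48 there. These 27 cells were picked by Krt14 and Acta2 themselves, which narrows the range of both genes. A smaller rho there is therefore no check on the relation. Myocd, at 3 fragments or fewer per cell, gave -0.09 to 0.15 over both groups, which at that depth is no measure of a relation.

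Points of these correlations are cells that share their chemistry and may share animals and chips. The number of genes per cell moved with the factors as well. Its rho with Trp63 was 0.21 in pregnant against 0.25 in virgin basal cells, with Snai2 0.29 and 0.41, with Id4 0.32 and -0.09, and with Srf 0.21 and 0.10. With gene number as a partial term, the virgin values were 0.21 for Trp63 with Krt14, 0.33 for Trp63 with Acta2, -0.11 for Snai2 with Krt14 and 0.27 for Snai2 with Acta2.

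**Figure D3:**
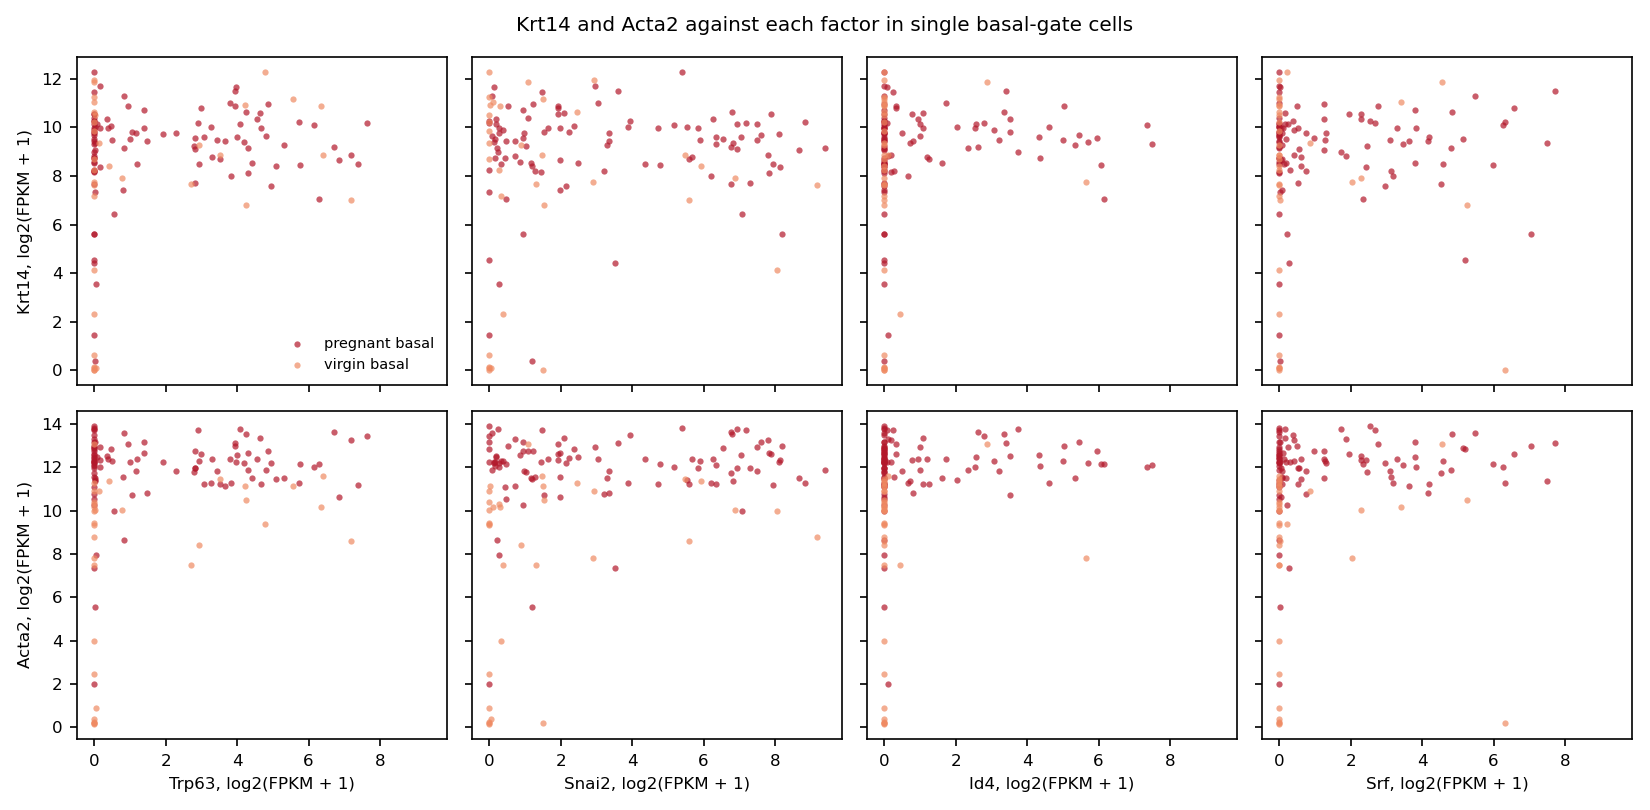
Krt14 (upper row) and Acta2 (lower row) against Trp63, Snai2, Id4 and Srf in single pregnant basal (dark red) and virgin basal (orange) cells, all as log2(FPKM + 1). In each panel cells with the factor at 0 run over the whole height of the plot, and cells with the factor present lie mostly at high Krt14 and Acta2 with no clear slope, as the rho values of -0.06 to 0.21 in pregnant and -0.07 to 0.38 in virgin basal cells describe.

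The factors were also weakly related to each other. In pregnant basal cells Trp63 and Id4 gave a rho of 0.29, with 23 cells at 1 FPKM of both, 28 of Trp63 alone, 11 of Id4 alone and 40 of neither. Trp63 and Snai2 gave 0.19, with 39 cells holding both, and Snai2 and Id4 gave -0.01, with 22 cells holding both. The 6 pairs without Myocd ranged from -0.01 to 0.29 in pregnant and from -0.09 to 0.23 in virgin basal cells. In virgin basal cells 6 of 34 held Trp63 and Snai2 together and 0 held Trp63 and Id4 together.

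The number of the 5 factors at 1 FPKM per cell was 2 or more in 68 pregnant basal cells, against 10 of 34 virgin basal, 7 of 49 pregnant luminal and 3 of 54 virgin luminal cells. No factor reached it in 9 pregnant basal, 14 virgin basal, 22 pregnant luminal and 25 virgin luminal cells. A set of 4 was seen in 6 pregnant basal cells and in no other group, and all 5 were seen in no cell. Virgin basal cells also had the fewest genes of any kind, and the part of this in the counts was not tested.

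**Figure D4:**
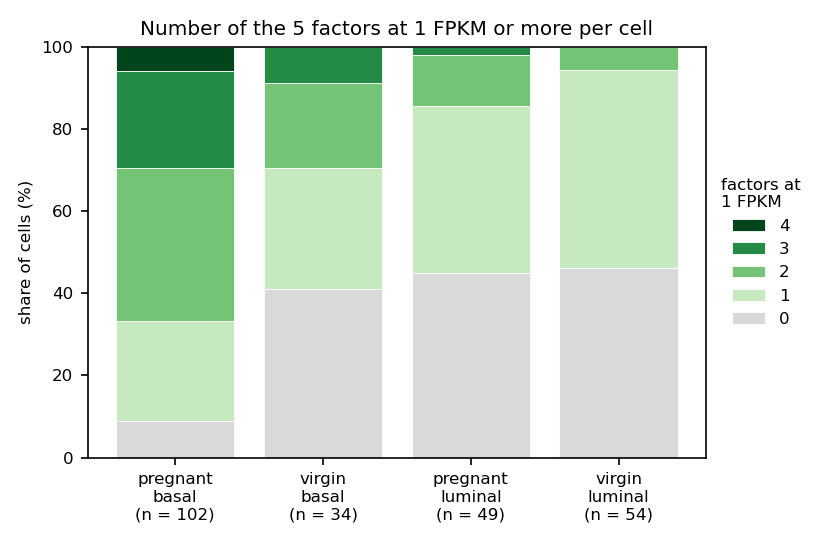
Share of cells (%) by how many of the 5 factors were at 1 FPKM or more, for pregnant basal, virgin basal (n = 34), pregnant luminal (n = 49) and virgin luminal cells (n = 54). Pregnant basal cells hold the smallest share without any factor, 8.82%, against 41.2% of virgin basal cells.

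Genes whose pattern was most like each factor were ranked by Pearson's r of log2(FPKM + 1) over the cells of all 4 groups, among 7925 genes. Trp63 was closest to contractile and actin-binding genes: Palld and Tpm2 at 0.51, Acta2 at 0.51, and Myl9 and Mylk at 0.50. Snai2 was closest to Nrg1 (neuregulin, 0.54), Fst (follistatin, 0.53), 1500015O10Rik (0.53), Palld (0.52) and Wif1 (a Wnt inhibitor, 0.52). Id4 was closest to Sostdc1 (0.47), Spon2 (0.43), Wif1, Lama1 and Col14a1 (0.40 each). For Srf the highest was 0.29, with Tpx2, a mitotic spindle gene. These values over all cells carry the difference between gates.

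Within the pregnant basal cells, among 6844 genes, other genes came first. Trp63 was closest to Nfix (a nuclear factor I gene, 0.49), ahead of Paip1 and Col4a5 at 0.39. Snai2 was closest to Skp1a and Fopnl at 0.38, Id4 to Tpst1 at 0.46 and Srf to Tle3 (a Groucho corepressor) and Stim1 at 0.42. Myocd gave its highest value, 0.61, with Phyhip, on at most 3 fragments per cell. With so many genes ranked over few positive cells, the top values of such lists are a description.

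Other transcription factors of the mammary epithelium gave a scale for the 5. In pregnancy Ehf (-5.68), Elf5 (-4.11) and Gata3 (-1.63), known from luminal cells, were lower in basal cells, whereas the largest difference among the 5 was 2.56, for Snai2. Tead1, a partner of YAP, was higher by 1.69. Of the 14 listed, 3 were higher and 4 lower in pregnant basal cells, against 3.26% and 10.1% of all genes. In virgin basal cells 0 were higher and 7 lower, against 1.51% and 16.6% of all genes. Among genes at 1 FPKM in at least 10% of cells, the share lower was 21.1% in pregnancy and 34.4% in virgins. In virgins Gata3 (-3.53), Ehf (-3.50), Sox9 (-1.88) and Foxa1 (-1.79) differed most. Between pregnant and virgin basal cells 5 of 14 were higher, among them Nfib (2.33), Sox9 (1.80), Gata3 (1.63) and Tead1 (1.27), and 0 lower. Of all genes 7.40% were higher and 0.293% lower, and of genes at 1 FPKM in at least 10% of cells 15.6% and 0.543%.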

How the data were processed

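Each sample was 1 cell, captured on a Fluidigm C1 chip, with cDNA by SMARTer and libraries by Nextera XT, per the labels' protocols. The authors deposited 1 table of FPKM values for 239 cells and 18850 genes; no header names the unit, which was taken from the tools and the range of values. The submitters' processing notes name Trimmomatic 0.35, TopHat2 2.0.13, Cufflinks 2.2.1 and the build mm10 (GRCm38); annotation, strand and multi-mapping rules are not given in these sources. Capture sites had been inspected for doublets, per the labels, and no caller was run.

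Low FPKM values of a gene are whole multiples of 1 fragment, which gave depth and fragment numbers: 99.9987% of 536192 low values over 12863 genes were whole within 0.05 of a step. Gene lengths placed the median cell at 8.47 M fragments. PCR copies cannot be told from molecules, and intervals and limits cover counting error only.

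Group values are means over cells of log2(FPKM + 1), with pseudocount 1, over 16727 genes above 0 in any cell. Fold changes on this scale are understated for low genes. A count of 0 was given the limit of 3 cells. Scripts in Python 3.11.15 with pandas 2.3.3, numpy 2.4.6 and scipy 1.17.1 were tested on simulated data. The rule for named genes took the 5 factors, Krt14 and Acta2, up to 4 genes of each list with the largest difference in a comparison, the 5 genes most like each factor (leading ones printed), and cell type markers beside a result; Des was named in addition, after its values were seen, and some list genes are not reported here by name. The factors, lists and tests were chosen with earlier results of these data known. Coordinates are GENCODE M21 on GRCm38, and promoter windows are RefSeq's on GRCm38.p6; no window was held for Trp63, Snai2 and Myocd. No cell was left out of the main values.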

Additional observations from a re-analysis of the deposited data

Results flagged for a closer look

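For Srf, basal minus luminal had opposite signs in the 2 states: 0.16 in pregnant cells and -0.50 in virgin cells on the log2(FPKM + 1) scale. In cells within the middle quartiles of gene number the pregnant value was -0.0058, in effect 0, and the virgin value -0.78. That setting kept 64 pregnant basal, 26 pregnant luminal, 6 virgin basal and 23 virgin luminal cells. For Id4, pregnant minus virgin had opposite signs in the 2 gates: 0.99 in basal cells and -0.067 in luminal cells. The luminal value rests on 1 virgin luminal cell with Id4 at 24.6 FPKM, and without it, a setting chosen after seeing the data, it was 0.020, of the same sign as in basal cells. Neither difference between the differences was tested, since each group is 1 sample.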

How the results depend on the processing

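No paired analysis was possible because the numbers in the labels only name cells and no test was made. Differences of the 5 factors moved by less than the spread over cells in 138 of 141 values under other settings. That spread is wide, so this count is no measure of stability. With at least 2000 genes per cell, pregnant minus virgin basal went from 0.58 to -0.33 for Trp63 and from 1.59 to 0.79 for Snai2. Both moves lay within the spread. The exceptions were Myocd, whose spread is small, at -0.0142 for virgin basal minus luminal with a pseudocount of 0.1, and at 0.0433 (pseudocount 0.1) and 0.0219 (every cell rescaled to the same sum) for pregnant minus virgin basal. Calls depended on the pseudocount: with 0.1, 1 factor was higher (Snai2 was lost) and 1 lower (Srf) in virgin basal than luminal cells and 4 were higher in pregnant than virgin basal cells, and with 10 the counts higher were 0 in virgin basal against luminal, 1 in pregnant basal against luminal and 0 in pregnant against virgin basal cells. That last count was 3 after rescaling (Snai2, Id4 and Srf), 2 in cells whose gene number lay within the middle quartiles (25th to 75th percentile), and 2 without cells with markers of other types. Over the 7926 genes at 1 FPKM in at least 10% of cells, the percent of genes higher and lower was 6.86 and 21.1 in pregnant basal against luminal, 3.02 and 34.4 in virgin basal against luminal, 15.6 and 0.543 in pregnant against virgin basal, and 6.16 and 6.01 in pregnant against virgin luminal cells. Of 138 correlations under other settings 124 moved by less than 0.2. In the 12 virgin basal cells with at least 2000 genes, Trp63 with Krt14 was -0.0142, Snai2 with Krt14 -0.636, Snai2 with Acta2 0 and Id4 with Acta2 0.480. In the 6 within the middle quartiles, Trp63 with Krt14 was -0.522, Trp63 with Acta2 turned to -0.580, Snai2 with Krt14 was -0.543, Snai2 with Acta2 0.0857 and Myocd with Krt14 0.655. Snai2 with Krt14 was -0.459 in virgin basal cells without markers of other types and -0.483 in the 27 with Krt14 and Acta2 both at 1 FPKM, where Snai2 with Acta2 was 0.0991. In pregnant basal cells within the middle quartiles, Srf was -0.243 with Krt14 and -0.188 with Acta2. Trp63 with Acta2 in virgin basal cells was 0.246 in the 12 cells, 0.251 without markers of other types and 0.207 in the 27. The cause of these shifts was not tested. List counts without cells of other types or against their gate, chosen after seeing the data, stayed within 1.5 times in 57 of 60 values. Shares of cells kept within their interval in 90 of 120 values; the others mostly took any level above 0, or 10 FPKM, as present. Depth limits what can be said of Myocd and of any factor at 0 in a shallow cell.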
